A study of Homo sapiens with 2 samples.

Results

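The proteasome genes were taken as the protein-coding rows of the deposited count table whose symbol is PSM, a letter from A to G and a number. The rule found 48 genes among 46865 loci, 19666 of them protein-coding, and used no measured value. Of the 48, 46 reached a mean of 1 CPM, the read count scaled to the size of the library, over both libraries. The other 2 had 0 reads in both: PSMA8, the alpha subunit known from testis, and PSMB11, the catalytic subunit known from thymic epithelium. A count of 0 allows a level of up to 0.0770 CPM in Control and 0.0823 CPM in PNU282987, the level of 3 reads.

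The deposited table holds RNA sequencing of 2 cultures of primitive macrophages, the embryonic type from which microglia descend. Both were made over 30 days from 1231A3, a wild-type human induced pluripotent stem cell line. The PNU282987 library is labelled as given 100 µM of PNU282987, which activates the α7 type of nicotinic acetylcholine receptor, for 12 hours, and the Control library carries no agonist in its own labels. The labels conflict in 2 places: amyloid β stands in the treatment field of the PNU282987 library, and the protocol text deposited for both libraries mentions the agonist. A vehicle is not stated, and both libraries come from 1 cell line. Groups follow the titles and library names.

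With a single library in each of the 2 groups, the differences have no replicate check and no p-value is given. Every interval is a 95% counting interval, which leaves out the spread between cultures. Control held 39316475 reads and PNU282987 held 36134391. Of the 10 macrophage markers, 9 were lower in PNU282987, with a median log2 ratio of -0.36, and their summed reads made up 0.669% of Control and 0.537% of PNU282987. The 5 granulocyte progenitor markers had a median of -0.82, from 0.0716% to 0.0495% of reads, and the 6 mesenchymal markers a median of 0.14, from 0.265% to 0.305%. After the trend of all loci with GC content and transcript length was taken out, the macrophage, granulocyte progenitor and mesenchymal medians were -0.26, -0.54 and 0.12. Of the defining stem cell and lymphocyte markers, POU5F1, TDGF1, CD3D, CD3E and MS4A1 had 0 reads in both libraries. The other stem cell markers had few reads, from 3 and 0 in NANOG to 182 and 146 in DNMT3B, while the lymphoid list also held NKG7, a cytotoxic granule gene, at 30.5 and 19.7 CPM. In these bulk samples fewer cells of a type and less RNA per cell cannot be told apart, and the part of these marker differences in the results below was not tested.

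The proteasome is the protease that degrades proteins tagged with ubiquitin. A barrel-shaped core particle of alpha and beta rings holds the catalytic sites, and a regulatory particle of ATPase and non-ATPase subunits binds, unfolds and feeds in the substrate. In immune cells, and after exposure to interferon-γ, the catalytic subunits PSMB8, PSMB9 and PSMB10 can take the places of PSMB5, PSMB6 and PSMB7. The resulting immunoproteasome, often with the PSME1 and PSME2 activator, changes which peptides reach MHC class I molecules.

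The genes for PSMB9 and for TAP1, a subunit of the transporter that carries proteasome products into the endoplasmic reticulum, start 487 bases apart on chromosome 6 and point away from each other. The stretches of 250 bases before their first RefSeq starts are shown because PSMB9 had the lowest ratio of all members and TAP1 is its partner across this interval. The windows of PSMB10 and PSME2 are shown because an interferon-stimulated response element core stands close to both starts. All are from RefSeq (GRCh38.p14), 5′ to 3′ on the gene's own strand. Capitals mark matches to 3 motifs searched on both strands: that core (GAAA, any 2 bases, GAAA), the gamma-activated site (TTCNNNGAA) and an NF-kB element (GGG, any 2 bases, TT, any 1 base, CC). The PSMB9 window is chr6:32853942-32854191 on the plus strand and the TAP1 window chr6:32853705-32853954 on the minus strand, with 13 bases in both. The PSMB10 window is chr16:67936851-67937100 and the PSME2 window chr14:24146611-24146860, both on the minus strand.
PSMB9: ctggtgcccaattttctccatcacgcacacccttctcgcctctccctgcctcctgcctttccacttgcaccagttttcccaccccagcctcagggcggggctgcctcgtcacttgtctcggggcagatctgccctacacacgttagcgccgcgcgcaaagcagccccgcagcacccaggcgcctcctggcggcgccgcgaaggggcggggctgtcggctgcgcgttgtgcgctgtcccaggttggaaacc
TAP1: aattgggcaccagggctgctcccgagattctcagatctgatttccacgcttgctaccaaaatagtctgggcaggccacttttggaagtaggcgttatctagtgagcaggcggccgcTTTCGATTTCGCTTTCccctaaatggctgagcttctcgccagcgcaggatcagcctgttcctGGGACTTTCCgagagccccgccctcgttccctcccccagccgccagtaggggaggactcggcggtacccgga
PSMB10: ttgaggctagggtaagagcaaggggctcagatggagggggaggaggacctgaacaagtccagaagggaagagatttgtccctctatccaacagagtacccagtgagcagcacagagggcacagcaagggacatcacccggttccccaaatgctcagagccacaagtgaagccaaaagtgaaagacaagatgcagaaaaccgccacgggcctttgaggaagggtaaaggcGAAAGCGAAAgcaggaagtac
PSME2: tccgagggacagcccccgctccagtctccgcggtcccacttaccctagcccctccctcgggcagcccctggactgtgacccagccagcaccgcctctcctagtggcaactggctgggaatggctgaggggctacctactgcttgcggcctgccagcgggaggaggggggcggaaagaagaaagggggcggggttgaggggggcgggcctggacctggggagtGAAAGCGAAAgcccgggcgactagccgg

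The PSMB9 window held none of the 3 motifs. The TAP1 window held 2 matches to the interferon-stimulated core, which overlap each other at 134 to 125 and 128 to 119 bases before its start, and 1 NF-kB match at 72 to 63 bases. PSMB10 and PSME2 carried the same 10 letters, GAAAGCGAAA, at 21 to 12 and 28 to 19 bases before their starts. Of the 42 members with a window, 5 (11.9%) held the interferon-stimulated core, against 3.71% of 27305 genes: PSMA4, PSMB4, PSMB10, PSME2 and PSMG4. The gamma-activated site stood in 7 members (16.7%) against 8.09% of genes, PSMB8 among them at its second start. The NF-kB element stood in 2 members (4.76%) against 6.14%. The antioxidant response element core (TGACNNNGC, left in lower case above) stood in 13 members (31.0%), PSMB9, PSME1 and PSME2 included, against 13.2% of genes, and the CCAAT box (CCAAT) in 19 (45.2%) against 37.0%. A match is a description of these letters, not a site or a cause.

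The proteasome genes as a group lay slightly lower in PNU282987, and PSMB9 was the 1 member that stood far from the rest. Ratios are PNU282987 over Control, in CPM with totals scaled by the trimmed mean of M values. The median log2 ratio of the 46 measured members was -0.13, with quartiles of -0.23 and -0.05, against a median of -0.01 and quartiles of -0.26 and 0.26 over the 14269 loci whose mean reached 1 CPM. The log2 ratio was below 0 in 40 members (87.0%), against 50.8% of all loci. The counting interval lay below equality in 32 members (69.6%), against 33.6% of loci, above it in 5 (10.9%), against 33.5%, and covered it in 9. Together the members took 0.415% of reads in Control and 0.385% in PNU282987.

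Differences of some size were few. A member was called when the ratio passed a fold, the interval excluded equality and the mean reached 1 CPM. At 2-fold, 1 member (2.17%) was lower, against 2.81% of all loci, and 0 were higher, against 2.96%. At a smaller step, at least 20% lower or 25% higher, 7 members (15.2%) were lower, against 18.8% of loci, and 1 (2.17%) was higher, against 19.0%. This smaller step is a log2 ratio of 0.32 in either direction. The shares called lower are near the background and are not a result about the members. The 7 were PSMB9, PSMC3, PSMC4, PSMB8, PSMB4, PSMB10 and PSME1, and the 1 higher was PSMG4.

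**Figure D1:**
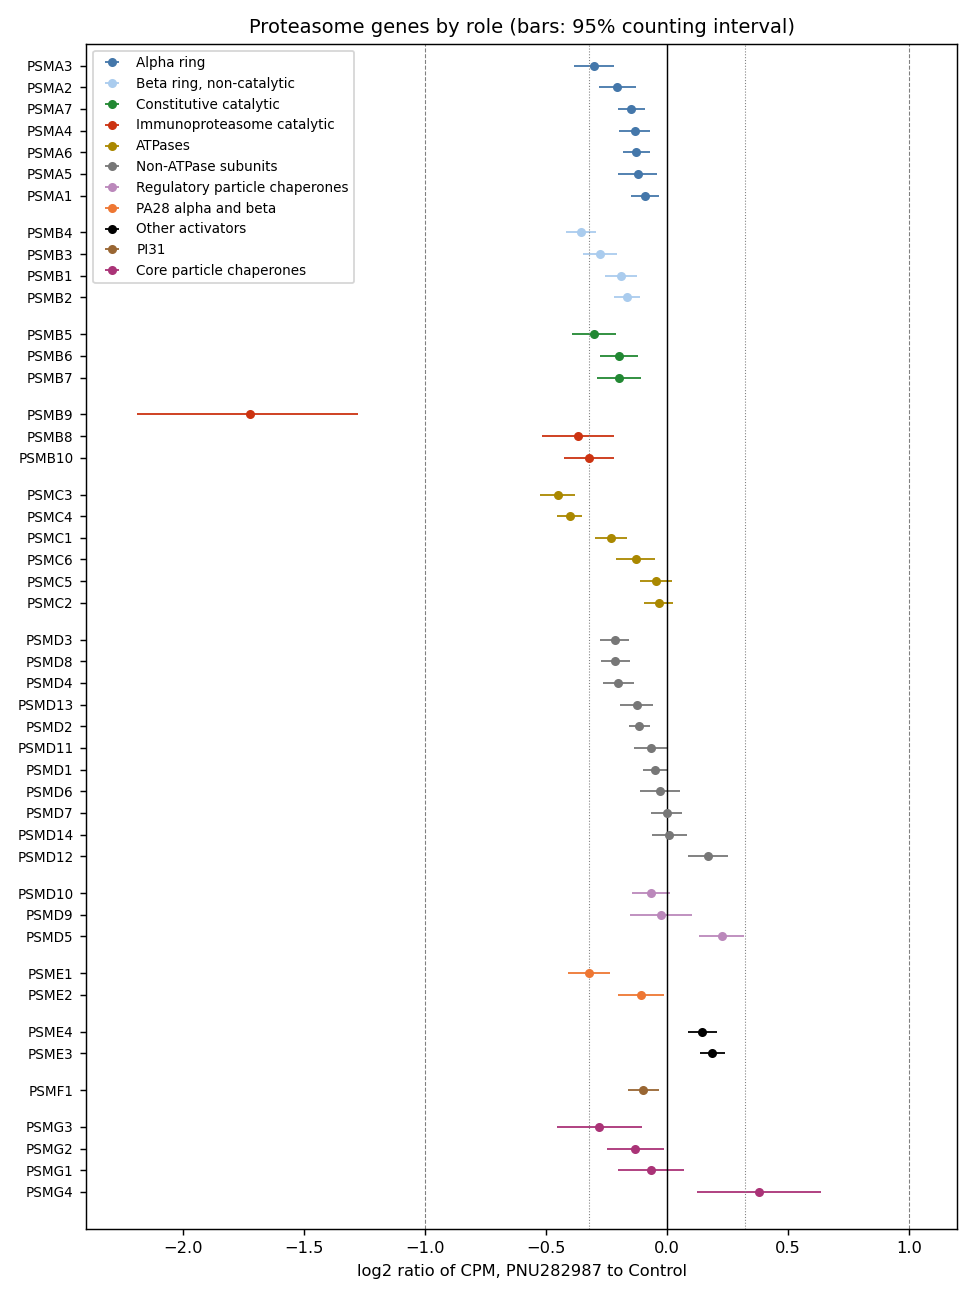
Log2 ratio of PNU282987 to Control in CPM for the 46 measured proteasome genes, grouped by role, with 95% counting intervals as bars, dotted lines at 20% lower and 25% higher, and dashed lines at 2-fold. PSMB9, at -1.72, lies far below the others, which run from -0.45 to 0.38.

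Of the 3 immunoproteasome catalytic subunits, PSMB9 differed most. PSMB9, the β1i subunit that takes the place of PSMB6 (chromosome 6, 32854192 to 32859851, GRCh38.p14), had 187 reads in Control and 53 in PNU282987. This was 4.80 CPM (exact interval 4.14 to 5.54) against 1.45 CPM (1.09 to 1.90), and the intervals do not overlap. It was 3.30-fold lower, a log2 ratio of -1.72 (-2.19 to -1.28). With all counts halved, as would apply had each fragment been counted as a pair of reads, the interval was -2.43 to -1.10. Per length, PSMB9 was the least expressed of the 46 in both libraries, at 6.14 and 1.86 RPKM, the CPM divided by the transcript length in kilobases.

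PSMB8 and PSMB10 differed far less. PSMB8, the β5i subunit that takes the place of PSMB5 (chromosome 6, 32840717 to 32844679), had 882 and 639 reads, or 22.6 and 17.5 CPM. Its log2 ratio was -0.37 (-0.52 to -0.22), 1.29-fold lower, and the antisense locus PSMB8-AS1, which overlaps it, had 90 and 82 reads. PSMB10, the β2i subunit that takes the place of PSMB7 (chromosome 16, 67934506 to 67936850), had 1806 and 1350 reads, or 46.3 and 37.0 CPM. Its log2 ratio of -0.32 (-0.43 to -0.22) stood at the edge of the smaller step. Per kilobase, PSMB10 was the highest of the 3 in both libraries, at 38.0 and 30.4 RPKM, followed by PSMB8 at 18.3 and 14.2.

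PSME1 and PSME2 form the PA28 ring that opens the core particle without ubiquitin, and their genes are neighbours on chromosome 14. PSME1 (24136194 to 24138962) had 2551 and 1908 reads, or 65.5 and 52.3 CPM, a log2 ratio of -0.32 (-0.41 to -0.24), also at the edge of the smaller step. PSME2 (24143365 to 24146610) had 1956 and 1698 reads, or 50.2 and 46.6 CPM, a log2 ratio of -0.11 (-0.20 to -0.01). The other activators had the opposite sign, though after the trend of all loci with GC content and transcript length was taken out PSME4 was -0.19 and PSME2 0.07. PSME3, the nuclear PA28γ ring, had 5905 and 6292 reads, or 152 and 173 CPM, a log2 ratio of 0.19 (0.14 to 0.24). PSME4, the PA200 activator known from DNA repair and spermatogenesis, had 109 and 121 CPM, a log2 ratio of 0.15 (0.08 to 0.21).

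The constitutive catalytic subunits were lower too, each by less than 20%. PSMB5, the chymotrypsin-like subunit, had 2270 and 1724 reads, or 58.3 and 47.3 CPM, a log2 ratio of -0.30 (-0.39 to -0.21). PSMB6, the caspase-like subunit, had 2952 and 2406 reads, or 75.8 and 66.0 CPM, a log2 ratio of -0.20 (-0.28 to -0.12). PSMB7, the trypsin-like subunit, had 2271 and 1851 reads, or 58.3 and 50.8 CPM, a log2 ratio of -0.20 (-0.29 to -0.11). PSMB7 overlaps LOC100129034, which had more reads than it, 8974 and 8702, and with these added the ratio was 0.0045, so the value of PSMB7 is uncertain.

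**Figure D2:**
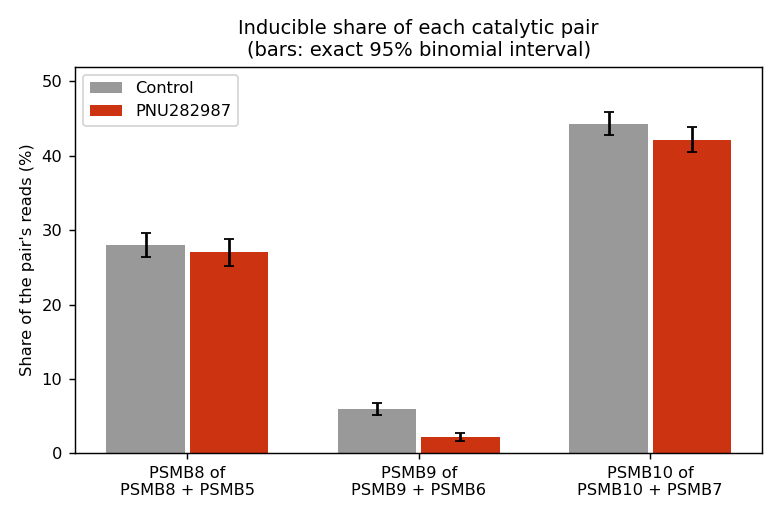
Share of each pair's reads held by the immunoproteasome gene, in percent, for the 3 catalytic pairs in the Control and PNU282987 libraries, with exact 95% intervals that cover counting error. The PSMB9 share of PSMB9 and PSMB6 reads was 5.96% in Control and 2.16% in PNU282987, while the intervals of the PSMB8 shares overlap.

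Each inducible subunit was then set against the constitutive subunit whose place it takes, a ratio within a library that no scaling between libraries can move. PSMB9 held 5.96% (exact interval 5.15 to 6.84) of PSMB9 and PSMB6 reads in Control and 2.16% (1.62 to 2.81) in PNU282987, an odds ratio of 0.348 (0.250 to 0.477). The shares in the other pairs of catalytic subunits differed less. PSMB8 held 28.0% (26.4 to 29.6) of PSMB8 and PSMB5 reads and then 27.0% (25.3 to 28.9), an odds ratio of 0.954 (0.845 to 1.08). PSMB10 held 44.3% (42.8 to 45.8) of PSMB10 and PSMB7 reads and then 42.2% (40.5 to 43.9), an odds ratio of 0.917 (0.834 to 1.01). Both of these intervals include 1, which leaves room for a difference of the size their bounds give. With the reads of LOC100129034 added to PSMB7, the PSMB10 share was 13.8% and then 11.3%, an odds ratio of 0.797 (0.738 to 0.859), so the PSMB10 result is uncertain.

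Per kilobase of transcript, and with each locus's own reads alone, the order of the 3 pairs was the same in both libraries. With overlapping reads added, the PSMB10 share of reads lay below the PSMB8 share in both, so the place of PSMB10 in that order is uncertain. PSMB10 stood at 0.640 of the level of PSMB7 in Control and 0.587 in PNU282987, and PSMB8 at 0.351 and 0.335 of PSMB5. PSMB9 stood at 0.0698 of PSMB6 in Control and 0.0243 in PNU282987. Among the activators, PSME1 held 30.2% of PSME1 and PSME3 reads in Control and 23.3% in PNU282987, an odds ratio of 0.702 (0.655 to 0.753). PSME2 held 24.9% and then 21.3% of PSME2 and PSME3 reads, an odds ratio of 0.815 (0.756 to 0.878). On the log2 scale these odds ratios were -0.51 for PSME1 and -0.30 for PSME2. With the GC and length trend removed, the differences from PSME3 were -0.42 and -0.16.

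As lists, the 5 immunoproteasome genes had a median log2 ratio of -0.32, and the 31 constitutive structural subunits a median of -0.15. The difference of -0.18 shrank to -0.10 once the trend over GC content and transcript length in all loci was removed, with medians of -0.18 and -0.08. Without PSMB9 the median of the other 4 was also -0.32 as measured. With the trend removed it was -0.14, against -0.08 in the 31 constitutive subunits. All 5 had intervals below equality, as did 24 of the 31, against 33.6% of all loci. Of the 31, 6 covered equality and 1 lay above it, against 33.5% of loci above. The PSME2 interval covered equality with plain library totals (-0.18 to 0.01), counts halved (-0.24 to 0.03) or the trend removed (-0.02 to 0.17). Against PSMB5, PSMB6 and PSMB7 alone the difference of the medians was -0.12.

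**Figure D3:**
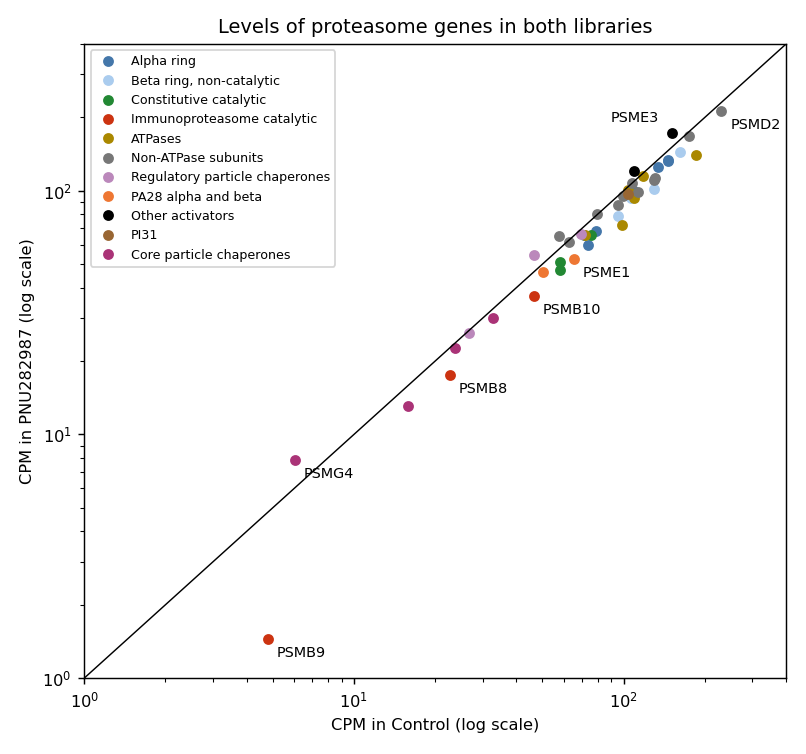
Level of each measured proteasome gene in the Control (x axis) and PNU282987 (y axis) libraries, in CPM on log axes, with the line of equality and colours by role. Most members lie close to the line, and PSMB9, at 4.80 and 1.45 CPM, lies lowest and farthest below it.

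In the core particle all 14 constitutive subunits had an interval below equality, with a median log2 ratio of -0.19. With the GC and length trend removed this held for 10 of the 14, against 33.6% of loci, and not for PSMA1, PSMA7, PSMB6 and PSMB7. The 7 alpha ring subunits, PSMA1 to PSMA7, which form the gate of the barrel, ran from -0.30 in PSMA3 to -0.09 in PSMA1, with a median of -0.13. PSMA3 overlaps the antisense locus PSMA3-AS1, which had 1597 and 1531 reads against its own 2867 and 2176. With those reads added, its ratio was -0.17. The 4 structural beta subunits without a catalytic site had a median of -0.23. Among them PSMB4, which takes part in beta ring assembly, had 5064 and 3705 reads, or 130 and 102 CPM, a log2 ratio of -0.35 (-0.42 to -0.29), 1.28-fold lower.

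In the regulatory particle the 17 subunits had a median log2 ratio of -0.11. Of their intervals 10 lay below equality, against 33.6% of all loci, 1 above, against 33.5%, and 6 across it. With the GC and length trend removed the intervals of PSMD3, PSMD8, PSMD13 and PSMD12 covered equality, while PSMD1 lay below it and PSMC5 above. The 6 ATPases, PSMC1 to PSMC6, which form the unfolding ring, included the 2 lowest ratios after PSMB9. PSMC3 had 3850 and 2635 reads, or 98.8 and 72.3 CPM, a log2 ratio of -0.45 (-0.52 to -0.38), 1.37-fold lower. PSMC4 had 7210 and 5105 reads, or 185 and 140 CPM, a log2 ratio of -0.40 (-0.45 to -0.35), 1.32-fold lower. PSMC2 and PSMC5, at -0.03 and -0.05, had intervals that covered equality, so members of 1 ring had unequal ratios. PSMC1, at -0.23, has a pseudogene, PSMC1P1, with 262 and 216 reads, and reads of the pair could be split.

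The 11 non-ATPase subunits ran from -0.22 in PSMD3 to 0.17 in PSMD12, with a median of -0.07. PSMD2, a scaffold of the base that receives substrates, had the highest CPM of all members, 230 in Control and 213 in PNU282987. PSMD4, a ubiquitin receptor, had 113 and 98.4 CPM, a log2 ratio of -0.20 (-0.27 to -0.14). PSMD14, the enzyme that removes the ubiquitin chain, had 79.6 and 80.1 CPM, a log2 ratio of 0.01 (-0.06 to 0.08), and its lid partner PSMD7 had 107 CPM in both. The lid subunit PSMD12 had 57.7 and 65.0 CPM, which gave 0.17 (0.09 to 0.25), or -0.05 (-0.14 to 0.03) with the trend removed.

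Of the 4 members with a ratio above 0 outside the activators, 2 were assembly factors. PSMG4, a chaperone of the alpha ring, was the highest member, with 235 and 286 reads, or 6.03 and 7.84 CPM, a log2 ratio of 0.38 (0.13 to 0.63), 1.30-fold higher. It was also the second least expressed measured member in CPM in Control, so its interval is wide. PSMD5, a chaperone of the regulatory particle base, had 1818 and 1988 reads, or 46.7 and 54.5 CPM, a log2 ratio of 0.23 (0.13 to 0.32). The other chaperones, PSMG1 to PSMG3, PSMD9 and PSMD10, ran from -0.28 in PSMG3 to -0.02 in PSMD9. Some of these signs depend on the processing: with the trend removed PSMD9 was 0.16 and PSMG1 0.02, and with overlapping loci added PSMG2 was 0.15. PSMF1, the PI31 regulator, had 104 and 97.3 CPM, a log2 ratio of -0.10 (-0.16 to -0.03).

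**Figure D4:**
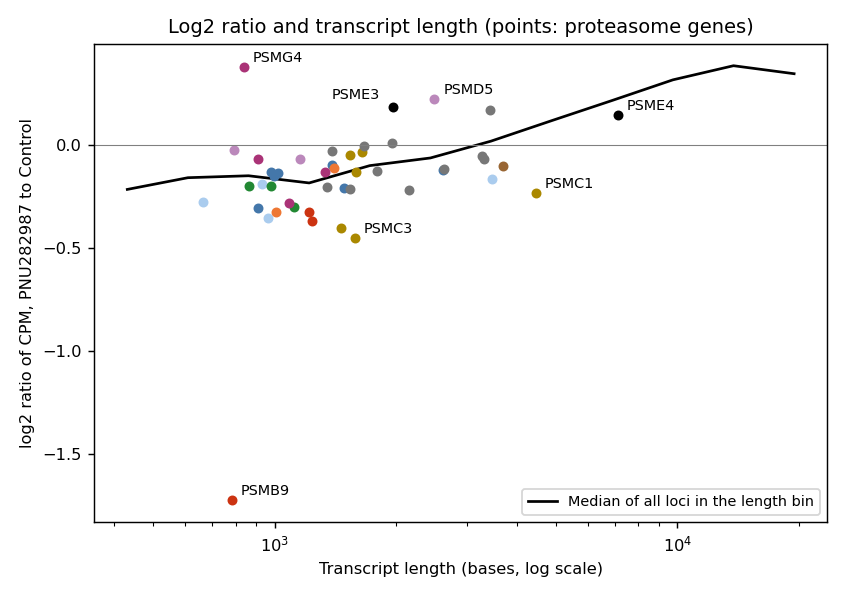
Log2 ratio of PNU282987 to Control against transcript length in bases (log axis) for the 46 measured members, with the median of all loci per length bin as a line. Points are coloured by role. Members with longer transcripts tend to have higher ratios, as loci in general do, and PSMB9 lies far below the line.

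The ratios moved with the length and base composition of the transcripts, in the members as in the whole table. Across the 46 members Spearman's rho of the log2 ratio was 0.36 with transcript length and -0.46 with GC content, against 0.31 and -0.37 across 13165 loci. These are correlations across genes of the same 2 libraries, not over samples, and they carry no p-value. With the trend removed, rho was -0.13 and 0.12 in the members, and their median log2 ratio was -0.08, against -0.02 over all loci. Then 37 of 46 lay below 0, against 53.4% of loci, and 34 of these were among the 40 below 0 before. PSMB9 kept a log2 ratio of -1.53 (-2.0 to -1.08), the only member still past 2-fold, against 2.25% of loci. At the smaller step 2 members were lower, PSMB9 and PSMC1 (-0.34), against 16.5% of loci, so PSMC3, PSMC4, PSMB8, PSMB4, PSMB10 and PSME1 lost their call, at -0.30, -0.25, -0.21, -0.22, -0.11 and -0.18. In all, 9 members changed sign, PSME2 and PSME4 among them.

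Proteins that work on or with the proteasome differed in both directions. Of 11 associated genes, 2 were higher and 1 lower at the smaller step, against 19.0% and 18.8% of all loci, with a median of -0.09. These counts, like those of the next 2 lists, are near or below the background. UCHL5, a deubiquitinase of the regulatory particle, had 35.6 and 48.0 CPM, a log2 ratio of 0.43 (0.33 to 0.53), and UBE3C, a ubiquitin ligase that binds the proteasome, 86.6 and 114 CPM, a log2 ratio of 0.40 (0.33 to 0.46), or 0.24 with the trend removed, which is inside the step. PAAF1, which binds ATPases of the regulatory particle, had 21.3 and 16.5 CPM, a log2 ratio of -0.37 (-0.52 to -0.21), or -0.07 with overlapping loci added.

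Of the 8 genes that control proteasome gene expression, 1 was higher and 1 lower at that step, against the same 19.0% and 18.8% of all loci, with a median of -0.13. DDI2, the protease that cuts and so activates the transcription factor NFE2L1, had 2580 and 4963 reads, or 66.2 and 136 CPM. It was 2.06-fold higher, a log2 ratio of 1.04 (0.97 to 1.11), or 0.62 with the trend removed, which is below 2-fold. MAFF, a small MAF partner of NFE2L1 and NFE2L2, had 12.4 and 8.91 CPM, a log2 ratio of -0.48 (-0.69 to -0.28). With the trend removed the MAFF ratio was -0.32, at the edge of the step. With the reads of the overlapping TMEM184B locus added it was -0.29, which is inside the step. NFE2L1 itself, which activates proteasome genes when proteasome capacity is short, had 293 and 261 CPM, a log2 ratio of -0.17 (-0.21 to -0.13).

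Among 6 genes for ubiquitin and its activating enzymes the median was -0.18, with 1 lower by at least 20%, against 18.8% of all loci, and 0 higher by at least 25%, against 19.0%. UBB, a polyubiquitin gene, had 335 and 265 CPM, a log2 ratio of -0.34 (-0.37 to -0.30), or -0.20 with the trend removed, which is inside the step.

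The genes that take proteasome products to MHC class I had a lower median ratio than the proteasome genes. Of 17 genes of class I loading and its control, 11 were at least 20% lower, against 18.8% of all loci, and 1 was at least 25% higher, with a median log2 ratio of -0.40. TAP1 had 1852 and 935 reads, or 47.5 and 25.6 CPM, a log2 ratio of -0.89 (-1.0 to -0.78), less far from 0 than its neighbour PSMB9. HLA-F, a non-classical class I molecule, had 5.54 and 2.85 CPM, a log2 ratio of -0.96 (-1.31 to -0.61), and reads can be split among HLA genes.

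**Figure D5:**
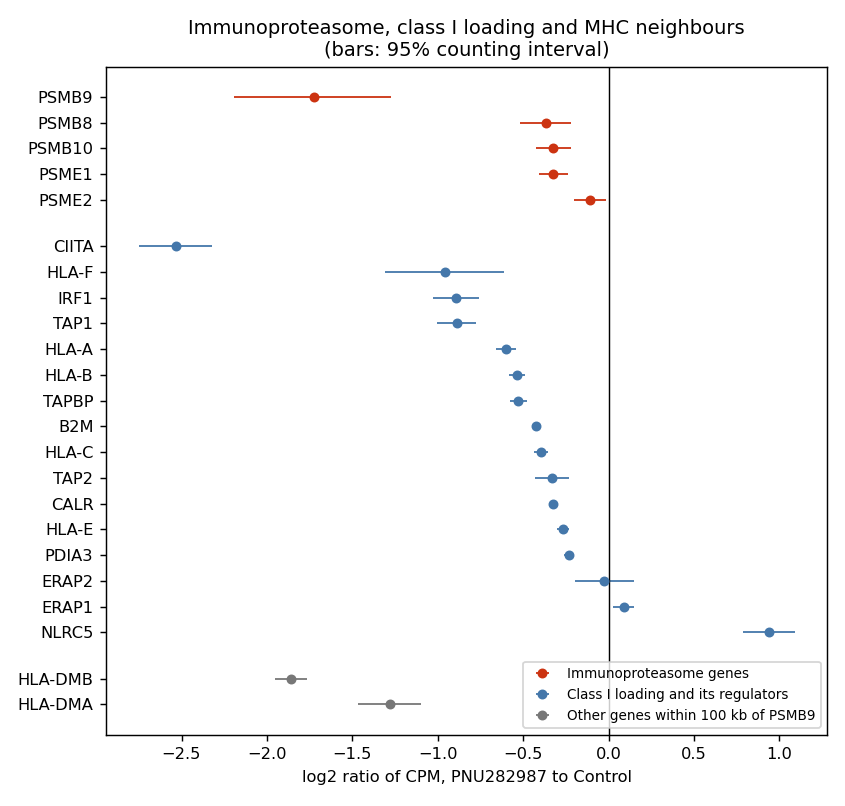
Log2 ratio of PNU282987 to Control, with 95% counting intervals, for the 5 immunoproteasome genes, genes of MHC class I loading and its regulators, and HLA-DMB and HLA-DMA, which lie within 100 kb of PSMB9. CIITA, at -2.53, HLA-DMB, at -1.86, and PSMB9, at -1.72, have the lowest ratios, and NLRC5, at 0.94, the highest.

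The regulators of that list did not share a direction. IRF1, a transcription factor induced by interferon, had 1315 and 663 reads, or 33.7 and 18.2 CPM, which gave -0.89 (-1.03 to -0.76) on the log2 scale. CIITA, the master regulator of MHC class II genes, went from 33.7 CPM to 5.82 CPM between the libraries, or -2.53 (-2.75 to -2.32) as a log2 ratio. With the reads of the overlapping DEXI locus added the ratio was -1.11. NLRC5, the activator of class I genes, had 568 and 1019 reads, or 14.6 and 28.0 CPM, a log2 ratio of 0.94 (0.79 to 1.09).

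PSMB9 and PSMB8 lie in the class II region, and their neighbours had ratios below 0 as well. The 5 protein-coding genes within 100 kb of PSMB9 whose mean reached 1 CPM were TAP2 at -0.33, PSMB8 at -0.37, TAP1 at -0.89, HLA-DMA at -1.28 and HLA-DMB at -1.86. HLA-DMA and HLA-DMB, which encode the class II peptide editor, were past 2-fold, HLA-DMB with 117 CPM in Control and 32.3 CPM in PNU282987. Around PSMB10, 8 of 11 neighbours had a ratio below 0, and around PSME2, 13 of 16, against 50.8% of all loci. The 16 include PSME1, itself a member, and NEDD8 and NEDD8-MDP1, whose loci overlap. Some of the ratios below 0, such as CENPT near PSMB10 and GMPR2 near PSME2, had intervals that covered equality. With the GC and length trend removed, CENPT was 0.04 and NRL, near PSME2, was 0.01. The other ratios below 0 in these 2 neighbourhoods kept their sign, GMPR2 at -0.003. In each of these 2 neighbourhoods 1 gene was at least 2-fold lower, against 2.81% of all loci: DPEP2, a dipeptidase gene, at -1.07, and IRF9, a subunit of the interferon-stimulated transcription factor complex, at -1.15 with 41.0 and 18.5 CPM.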

How the data were processed

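RNA was measured in 2 libraries, 1 per group. Values are the authors' raw counts of reads for each locus, per the file headers. StringTie 2.1.3b, HISAT2 2.1.0, Trimmomatic 0.38, FastQC 0.11.7, edgeR and GRCh38 are named in the submitters' processing notes. Settings, and the handling of mates, multi-mapping reads and strand in counting, are not given in the sources read here. If a fragment was counted as 2 reads, intervals are too narrow.

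CPM were computed from the counts with TMM factors (0.991 in Control, 1.01 in PNU282987) from edgeR 4.0.16 in R 4.3.3. Ratios carry exact 95% Clopper-Pearson intervals for counting error. With 1 library per group edgeR can estimate no spread, so loci were read by size: at least 2-fold, or a smaller step of 20% lower or 25% higher, with an interval that excludes 1 and a mean of 1 CPM or more. Odds ratios carry exact conditional intervals. The floor is 3 reads. The steps were tested on simulated counts with counting error only, which cannot show the spread between cultures.

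The members, lists and rules were chosen with earlier results of these data known. Values are given in full for the 5 immunoproteasome genes, PSMB5, PSMB6, PSMB7, PSME3 and the 3 highest and 3 lowest members, and per list for up to 4 genes past the smaller step with the greatest change, or the 2 with the most reads where fewer than 2 passed. Other genes were named after their values were seen. A few genes that this rule or the marker lists hold are not reported here.

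Positions and promoter windows are RefSeq's (GRCh38.p14). Transcript lengths and GC content are medians over GENCODE transcripts paired with a RefSeq transcript, known for 92.3% of 14269 loci and all 46 members. The trend over both was a robust cubic fit. Alternatives were size factors from DESeq2 1.42.0, upper-quartile or plain library totals, filters, halved or thinned counts, trend removal, overlapping loci and other comparators; those of the context lists, and odds ratios with overlapping loci, were added after seeing the data. Python 3.11.15, SciPy 1.17.1, statsmodels 0.14.6 and matplotlib 3.10.9 were used.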

Additional observations from a re-analysis of the deposited data

How the results depend on the processing

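With 1 library per group no library could be left out. No paired analysis was possible because each group has 1 library and the comparison comes from no test. PSMB9 ran from -1.74 to -1.53 over the alternatives. Under a minimum of 10 CPM, which leaves out PSMB9 and PSMG4, 0 members were 2-fold lower, against 1.45% of loci. At the smaller step 0 were higher under that minimum, against 19.0% of loci. With the GC and length trend removed, the immunoproteasome median moved to -0.18 and the members at least 20% lower to 2, against 16.5% of loci. The medians of the associated, gene control and ubiquitin lists then moved to -0.16, -0.044 and -0.11. With overlapping loci added, the PSMB8 share was 30.0% in Control and 29.5% in PNU282987, and the PSMB10 share 13.8% and 11.3%, because LOC100129034 joins PSMB7. Per kilobase, the shares were 26.0% and 25.1% for PSMB8 and 39.0% and 37.0% for PSMB10. Library totals left 5 members at least 20% lower, against 17.4% of loci, without PSMB10 and PSME1. Depth limits PSMB9, with 53 reads in PNU282987, and PSMG4.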

Other observations

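Among loci named after proteasome genes outside the protein-coding rule, the antisense locus PSMA3-AS1 had the most reads. Of 42 pseudogenes, 12 had any read, with 305 reads in Control and 263 in PNU282987 in all, and PSMC1P1 held 262 and 216 of these. PSMA3-AS1 had 55.7% as many reads as PSMA3 in Control and 70.4% in PNU282987, with a log2 ratio of its own of 0.04 (-0.07 to 0.14) beside -0.30 in PSMA3. PSMG3-AS1, which does not overlap the chaperone gene PSMG3, had 253 reads in Control and 185 in PNU282987, at -0.36 (-0.64 to -0.08) on the log2 scale. Strand use in counting is not given, so reads of PSMA3 and PSMA3-AS1, which overlap, cannot be told apart.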
